A study of Mus musculus with 9 samples.

Results

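The sarcomere genes encode the thick and thin filaments of striated muscle and the proteins that tie them together. Genes were taken by name from the annotation that each array carries: 40 genes were listed, 39 of them had a probe under that name, out of 27597 genes in all, and they held 79 of the 41174 non-control probes. Of the 40, 5 are developmental isoforms, 11 slow or cardiac isoforms, 15 adult fast isoforms and 9 proteins shared by fibre types. The study measured RNA on 9 one-colour arrays in 3 groups of 3 arrays. 2 groups were mononucleated cells of myogenic progenitors derived from pluripotent stem cells, named iPax3 and iPax7, which had been injected in vivo and taken back from the Tibialis anterior, a leg muscle, of NSG/NSGmdx4cv mice. These hosts are immunodeficient, and mdx4cv is a dystrophin mutation. The third group was satellite cells, the resident stem cells of adult muscle, from the Tibialis anterior of Pax7-ZsGreen mice, a strain with a fluorescent reporter. Every group is labelled as 3 months old. Per the labels, 1500 cells came from 3 mice per line in 3 independent experiments, and their RNA was amplified before labelling. The question was how far engrafted progenitors resemble adult satellite cells. Multinucleated fibres, which hold most sarcomere protein in muscle, are not among the sorted mononucleated cells. How the re-isolated cells were gated, and so what share of them could be host cells, is not given in the sources used here.

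In a sarcomere, myosin heavy chains with their light chains form the thick filament and pull on thin filaments of actin. Tropomyosin lies along actin, and the troponin complex of a calcium-binding, an inhibitory and a tropomyosin-binding subunit moves it when calcium is released. Muscle swaps isoforms as it matures: embryonic and perinatal forms are made in development and again in regenerating fibres, and slow or fast adult forms follow. Satellite cells at rest express few of these genes at high level, and their transcripts rise when myoblasts differentiate and fuse.

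Between 57.2% and 79.9% of spots lay well above background on an array. A level here is log2 of the background-corrected spot signal minus the 75th percentile of its array, so that 0 marks that percentile. It compares arrays within a probe and does not rank genes. All 6 re-isolated arrays were scanned on 1 day and lay on slides 1 and 2, and the satellite arrays lay on slides 3, 4 and 5 and were scanned on other days. Slide, scan day, host strain and cell source therefore cannot be told apart in the comparisons with satellite cells. The mean levels of the fibroblast and satellite cell marker lists separated the re-isolated from the satellite arrays. The 12 fibroblast genes averaged between 4.13 and 4.97 on the re-isolated arrays against -0.40 to -0.16 on the satellite arrays. The 11 satellite cell genes with a value averaged -0.45 to 0.77 on the re-isolated arrays and 2.30 to 3.41 on the satellite arrays. With the re-isolated groups together, 9 of the 12 were called higher and 3 of the 11 lower, beside 1.04% of all genes called. By sign, all 12 fibroblast genes were higher, and of the 11 satellite cell genes 10 were lower and 1 was higher. The means of the endothelial, leukocyte, smooth muscle and pericyte, Schwann cell and erythroid lists overlapped between pooled re-isolated and satellite arrays. By group, the endothelial mean of iPax3, -2.73 to -2.70, lay below the satellite range of -2.08 to -0.68. That of iPax7, -1.66 to -0.38, overlapped it. The erythroid mean, of 3 genes, was 0.11 to 1.34 in iPax7, above the satellite range of -2.05 to -1.06. In iPax3 it was -2.70 to 0.94 and overlapped that range. The part of any marker list in the results below was not tested. Fewer cells of a type and less RNA per cell cannot be told apart in such bulk samples.

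No sarcomere gene differed between the groups past the test. Of the 40 genes, 38 had a probe well above background on at least 3 of 9 arrays and were tested. Of these, 32 were well above background on all 9 arrays. The other 6 were Tnnt2 and Actn3, on 8 arrays, Mylpf and Mybpc2, on 7, and Myl1 and Myom2, on 6. Parvalbumin (Pvalb), a calcium buffer of fast fibres, was above background on 1 satellite array only and had no test. Mybpc1, the slow myosin-binding protein C, was on the array only under an older name and so fell outside the choice by name. In limma's moderated test over all 22705 genes, with Benjamini-Hochberg adjustment at 0.05, 0 of 38 were called in iPax3 against satellite cells, where 0.432% of all genes were called. In iPax7 against satellite cells 0 of 38 were called, beside 0.533% of all genes. In both re-isolated groups together against satellite cells 0 of 38 were called, beside 1.04% of all genes. In iPax7 against iPax3 0 of 38 were called, beside 0% of all genes. At an unadjusted p under 0.05, 1 member stood in each satellite comparison, beside 12.4%, 12.4% and 15.4% of all genes, and none in iPax7 against iPax3, beside 4.1%. The satellite comparisons share their control arrays and are given side by side.

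By sign, 25 of 38 members had a lower mean in iPax3 than in satellite cells, beside 54.7% of all genes. In iPax7, 28 of 38 were lower, beside 54.1% of all genes, and with the re-isolated groups together 25 of 38, beside 54.4%. The median difference over the members was -0.42 for iPax3, -0.44 for iPax7 and -0.47 for both together, the last of which was -0.23 without satellite replicate 3. Over all genes it was -0.19, -0.15 and -0.16. The standard error of a member's difference was large beside these shifts, with a median of 0.87 in each single comparison.

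**Figure D1:**
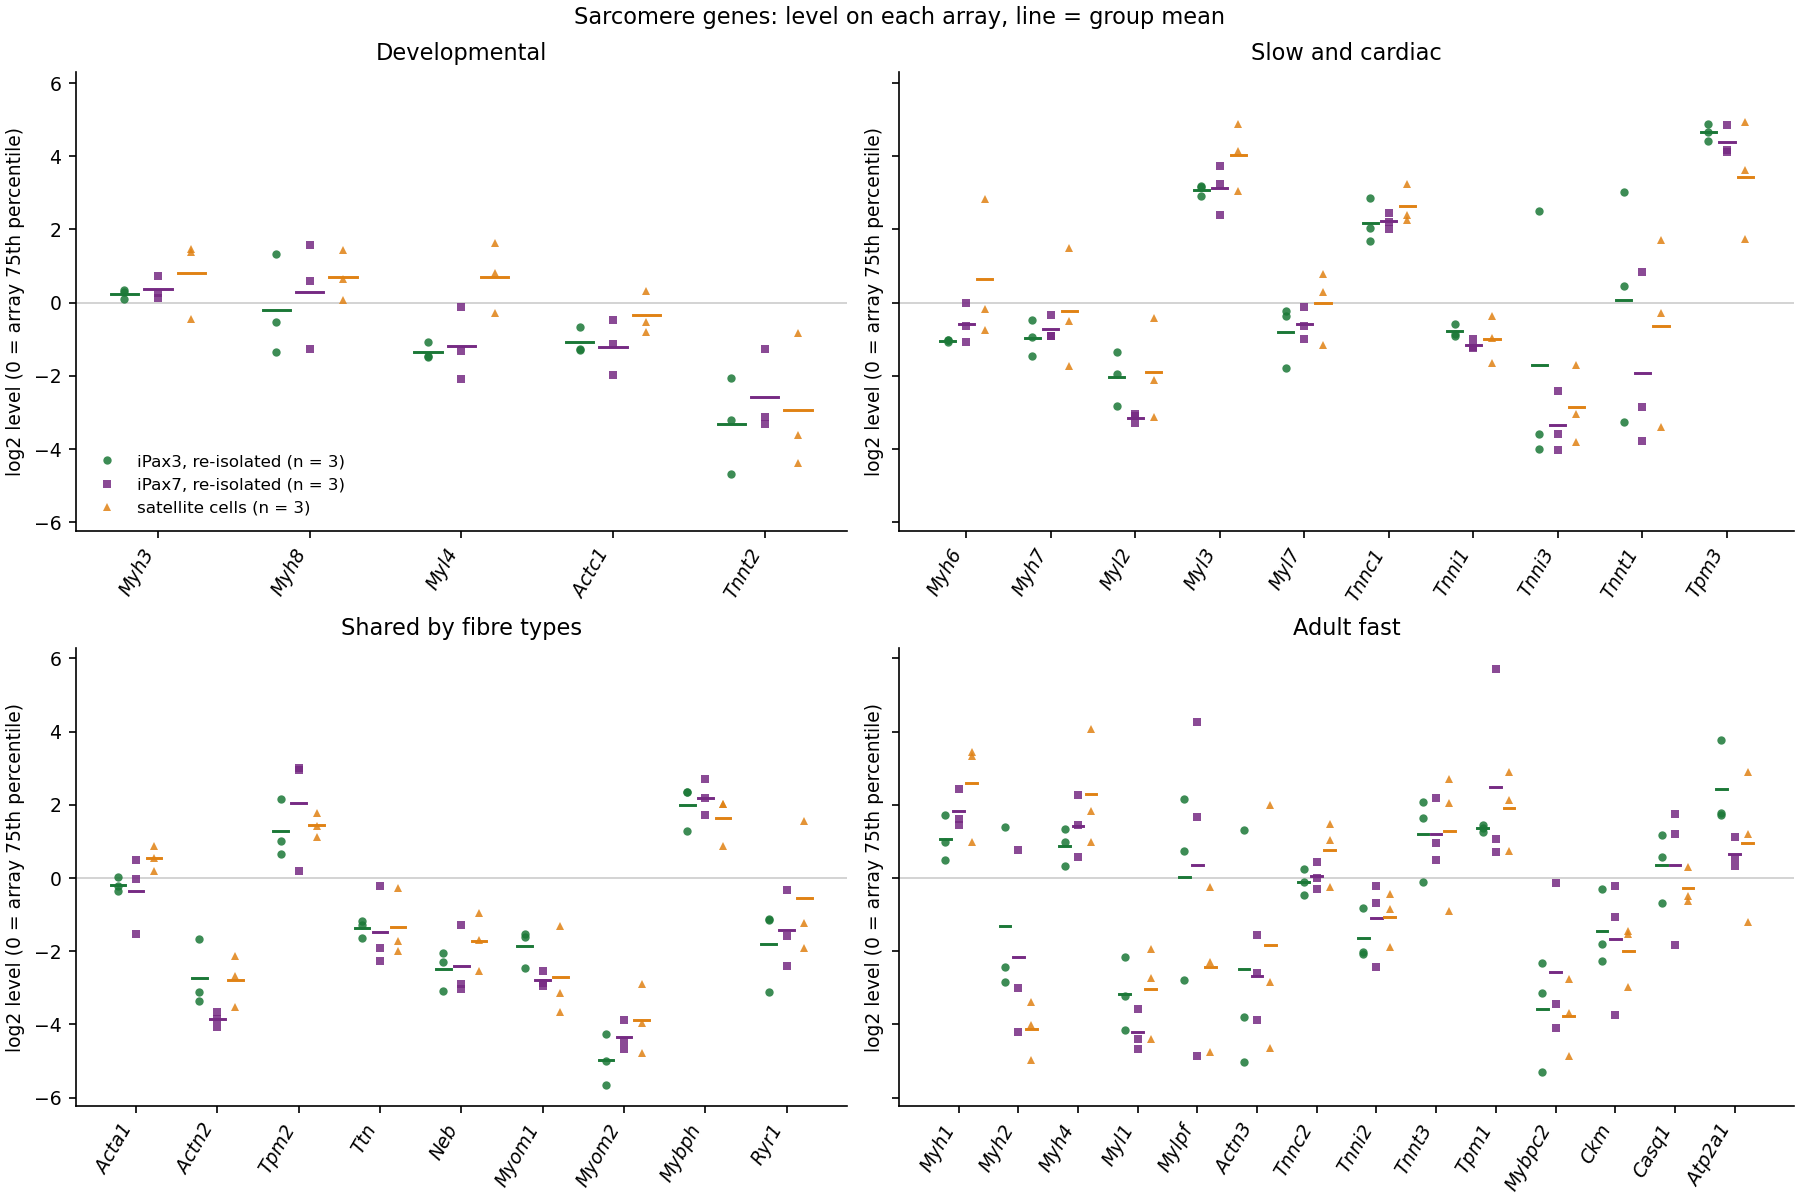
Log2 level of the 38 tested sarcomere genes on each of the 9 arrays, where 0 is the array's 75th percentile. Points are arrays, short lines are group means and the 4 panels are isoform classes. The groups overlap for most genes, and Mylpf, Actn3, Tnnt1, Tnni3 and Myh2 spread widest between arrays of a group.

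The spread between arrays of a group differed widely from gene to gene. Pooled over the groups, its standard deviation ran from 0.39 for Tnni1, the slow inhibitory troponin, to 3.36 for Mylpf, the fast regulatory light chain. Mylpf ranged from -4.87 to 4.27 over the 9 arrays, and these extremes were both iPax7 arrays. The median over the 38 members was 0.98, against 1.31 over all genes, and 5 of 38 members exceeded 2, beside 25.6% of all genes. Those 5 were Mylpf, Actn3, Tnnt1, Tnni3 and Myh2. The 95% interval of the difference between the re-isolated groups together and satellite cells included 0 for 37 of 38 members. It stayed within 2 log2 units on either side for 9 members, and within 4 for 35. The tightest was Tnni1, whose interval reached from -1.21 to 1.26, and the widest was Mylpf, from -1.83 to 7.10.

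With the re-isolated groups pooled, all 5 developmental isoforms were lower than in satellite cells in mean level, none past the test. They are Myh3 and Myh8, the embryonic and perinatal myosin heavy chains, Myl4, the atrial and embryonic essential light chain, Actc1, cardiac actin, and Tnnt2, cardiac troponin T. These cardiac forms are also made in immature skeletal muscle. Their median level was -0.28, 0.80 and 0.06 on the satellite arrays, -0.67, -1.35 and -1.09 on the iPax3 arrays, and -0.48, -1.98 and -1.14 on the iPax7 arrays. The satellite arrays thus lay above all 6 re-isolated arrays in this median. On satellite replicates 1 and 2 the median was the value of 1 Myl4 probe. The other kept Myl4 probe read -2.06 and -1.62 there, so this separation depends on which Myl4 probe stands for the gene. The median of the 5 differences was -0.66 with the re-isolated groups together, and -0.34 without satellite replicate 2.

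Myl4 read -0.28, 0.80 and 1.62 on the satellite arrays. It read -1.50, -1.47 and -1.09 on the iPax3 arrays and -0.12, -2.09 and -1.33 on the iPax7 arrays. The satellite arrays were above every iPax3 array, and 1 iPax7 array reached into their range. The difference was -2.07 ± 0.79 (SE) for iPax3, with an adjusted p of 0.339, and -1.89 ± 0.79 for iPax7, with an adjusted p of 0.380. With both groups together it was -1.98 ± 0.68, adjusted p 0.227, the lowest adjusted p of any member in that comparison, and its interval ran from -3.51 to -0.45. Myl4 was also the member with an unadjusted p under 0.05 in each comparison with satellite cells.

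Actc1 read 0.33, -0.79 and -0.53 in satellite cells. It read -0.67, -1.26 and -1.31 in iPax3 and -0.48, -1.98 and -1.14 in iPax7. The satellite mean was -0.33 ± 0.59 (SD, n = 3), and both re-isolated groups lay lower in mean while overlapping it. Myh3 read -0.46, 1.39 and 1.48 in satellite cells, and its 6 re-isolated values were all between 0.09 and 0.73. The satellite arrays lay on both sides of the re-isolated ones. Myh8 ran from -1.35 to 1.58 in the re-isolated cells and from 0.06 to 1.44 in satellite cells, so the satellite range lay inside the other. Tnnt2 was the most even in mean of the 5, with a difference of -0.01 ± 0.98 for the re-isolated groups together, and was the 1 member of the class with a higher mean in iPax7, by 0.36.

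**Figure D2:**
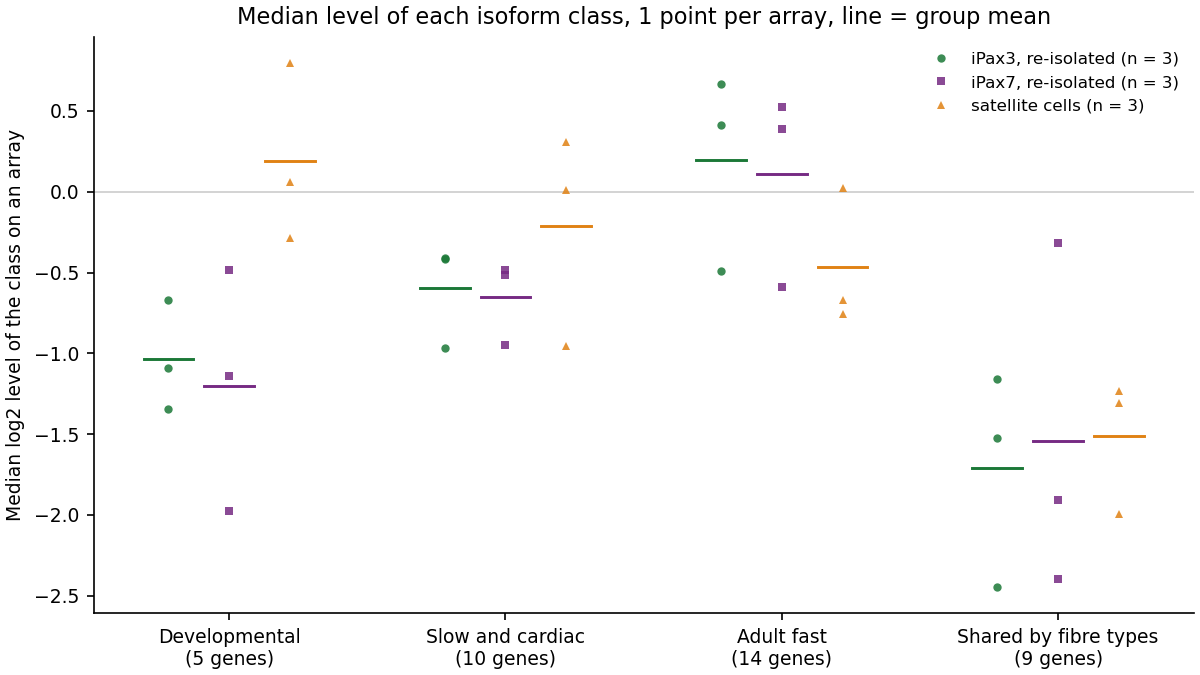
Median log2 level of each isoform class on each array, where 0 is the array's 75th percentile; points are arrays and short lines are group means. In the developmental class the 3 satellite arrays, from -0.28 to 0.80, lie above the 6 re-isolated arrays, while the other classes overlap. On satellite replicates 1 and 2 the developmental median is the value of 1 of the 2 kept Myl4 probes, which differ.

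Among the slow and cardiac isoforms, 7 of 10 tested genes were lower in the re-isolated cells in mean and 3 were higher, none past the test. The median difference was -0.52 with the re-isolated groups together, and it was -0.12 without satellite replicate 3 and -0.93 without satellite replicate 1. The class median overlapped between groups, with -0.97 to -0.41 on the iPax3 arrays, -0.95 to -0.48 on the iPax7 arrays and -0.96 to 0.31 on the satellite arrays.

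Myh6, the alpha cardiac myosin heavy chain, read -1.08, -1.03 and -1.02 in iPax3 and -0.02, -1.08 and -0.64 in iPax7. In satellite cells it read -0.76, 2.83 and -0.17. A single satellite array carried most of the difference of -1.45 ± 0.83, adjusted p 0.432: without satellite replicate 2 the difference was -0.35. Myh7, the beta cardiac and slow myosin, read -1.73, -0.50 and 1.50 in satellite cells, and all 6 re-isolated arrays, from -1.46 to -0.34, lay inside that range. Myl3, the slow and ventricular essential light chain, read 3.06, 4.14 and 4.87 in satellite cells and between 2.40 and 3.73 in the re-isolated cells. Its difference was -0.92 ± 0.63, adjusted p 0.512. Tpm3, the slow tropomyosin gene, whose other transcripts serve non-muscle cells, was the member of this class with the largest positive difference. It read 3.63, 1.74 and 4.94 in satellite cells and between 4.11 and 4.88 in the re-isolated cells, so the groups overlapped at the top, and the difference was 1.08 ± 0.75, adjusted p 0.517.

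The slow troponins differed in how far their arrays spread. Tnnc1, the calcium-binding subunit of slow and cardiac muscle, stayed between 1.68 and 3.25 on all arrays, with a difference of -0.44 ± 0.57. Tnni1 stayed between -1.65 and -0.36, with a difference of 0.02 ± 0.55. Tnnt1, the slow tropomyosin-binding subunit, ran from -3.26 to 3.02 in iPax3, from -3.79 to 0.83 in iPax7 and from -3.39 to 1.72 in satellite cells, so each group held both a high and a low array. Tnni3, the cardiac inhibitory subunit, read 2.50 on iPax3 replicate 3 and between -4.02 and -1.70 on the other 8 arrays. Myl7, the atrial regulatory light chain, differed by -0.66 ± 0.68, and Myl2 by -0.70 ± 0.72.

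The adult fast isoforms were split evenly: 7 of 14 tested genes were lower and 7 higher in the re-isolated cells in mean, none past the test. Their median difference was -0.04 with both groups together, and its sign changed with the processing. The class median ran from -0.49 to 0.66 in iPax3, from -0.59 to 0.53 in iPax7 and from -0.76 to 0.03 in satellite cells. The genes of the class varied between arrays of a group with pooled standard deviations from 0.60 for Tnnc2 to 3.36 for Mylpf.

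Myh1 and Myh4, the IIx and IIb fast myosins, were lower in the re-isolated cells in mean. Myh1 read 0.99, 3.33 and 3.44 in satellite cells, 0.99, 1.72 and 0.50 in iPax3 and 1.44, 1.60 and 2.42 in iPax7. The pair of highest arrays were satellite arrays, and the third fell within the iPax3 range. The difference was -1.14 ± 0.73, adjusted p 0.480. Myh4 read 1.82, 0.99 and 4.07 in satellite cells and between 0.32 and 2.27 in the re-isolated cells, with a difference of -1.14 ± 0.80, adjusted p 0.523. Without satellite replicate 3 that difference was -0.25. Tnnc2, the fast calcium-binding troponin, ran from -0.46 to 0.44 in the re-isolated cells and from -0.26 to 1.47 in satellite cells.

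Myh2, the IIa fast myosin, went the other way. It read -4.97, -3.39 and -4.03 in satellite cells. It read -2.44, -2.84 and 1.39 in iPax3 and -3.00, -4.21 and 0.77 in iPax7. Every iPax3 array was above the satellite arrays, and 1 iPax7 array fell inside their range. The difference was 2.41 ± 1.28, adjusted p 0.405, and replicate 3 of iPax3 and replicate 3 of iPax7 stood more than 3 log2 units above the other re-isolated arrays. Mylpf read -2.30, -0.24 and -4.76 in satellite cells, -2.79, 0.75 and 2.16 in iPax3 and 4.27, -4.87 and 1.68 in iPax7. Its difference of 2.64 ± 1.98, adjusted p 0.552, was the largest of the members and smaller than the range within iPax7. Tpm1, the fast and cardiac tropomyosin, read 5.72 on iPax7 replicate 1 and between 0.71 and 2.90 on the other arrays.

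Among the other fast genes, Atp2a1, the fast calcium pump of the sarcoplasmic reticulum, read 1.77, 1.73 and 3.77 in iPax3, 0.33, 1.12 and 0.55 in iPax7 and 2.90, -1.21 and 1.20 in satellite cells. The iPax3 arrays were above all iPax7 arrays, and the satellite arrays overlapped both groups. Ckm, muscle creatine kinase, differed by 0.43 ± 0.90, and Casq1, the fast calcium store protein, by 0.63 ± 0.88. Actn3, the fast Z-disc actinin, ran from -5.02 to 1.32 within iPax3 and from -4.65 to 2.01 within satellite cells. The last 4 of the class were Myl1, the fast essential light chain, Tnni2 and Tnnt3, the fast inhibitory and tropomyosin-binding troponins, and Mybpc2, the fast myosin-binding protein C. Their differences ran from -0.68 for Myl1 to 0.69 for Mybpc2. The other kept probes of Myl1 and Tnnt3 were higher in the re-isolated cells, by 1.81 and 0.87.

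Of the 9 genes shared by fibre types, 6 were lower and 3 higher in mean, none past the test, with a median difference of -0.51 for the re-isolated groups together, which was -0.27 without satellite replicate 2 and -0.77 without iPax3 replicate 1. Acta1, skeletal actin, read 0.87, 0.20 and 0.56 in satellite cells, -0.22, 0.02 and -0.34 in iPax3 and 0.49, -1.52 and -0.02 in iPax7. The satellite arrays were above every iPax3 array, and the difference was -0.81 ± 0.62 with both groups, adjusted p 0.559. Actn2, the Z-disc actinin of all fibres, read -2.69, -2.14 and -3.52 in satellite cells and -3.65, -3.86 and -4.08 in iPax7, with no overlap between those groups. In iPax3 it read -1.68, -3.12 and -3.36, which overlapped the satellite values. Ttn, the giant spring protein titin, and Neb, the thin-filament ruler nebulin, differed by -0.08 ± 0.69 and -0.71 ± 0.68. Over all their kept probes the differences ran from -0.87 to 1.23 for Ttn and from -0.71 to 2.03 for Neb. Ryr1, the calcium release channel, read 1.55, -1.23 and -1.92 in satellite cells and between -3.12 and -0.31 in the re-isolated cells. Mybph, a myosin-binding protein of the thick filament, differed by 0.46 ± 0.61, and its lowest array was a satellite array. The other kept Mybph probe went the opposite way, with a difference of -1.18. Tpm2, the beta tropomyosin, differed by 0.21 ± 0.78, and the M-band proteins Myom1 and Myom2 by 0.38 ± 0.67 and -0.77 ± 0.65.

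Counting arrays that did not overlap gave few members. Against satellite cells, iPax3 had 3 members below (Acta1, Myh6 and Myl4), beside 10.4% of all genes, and 1 above (Myh2), beside 8.6%. iPax7 had 1 member below (Actn2), beside 8.88% of all genes, and 0 above, beside 7.64%. With both re-isolated groups against satellite cells there were 0 below, beside 4.36% of all genes, and 0 above, beside 4.14%. As shares of the 38 members these are 7.89%, 2.63% and 2.63% for the groups that had any, all under the share over all genes.

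**Figure D3:**
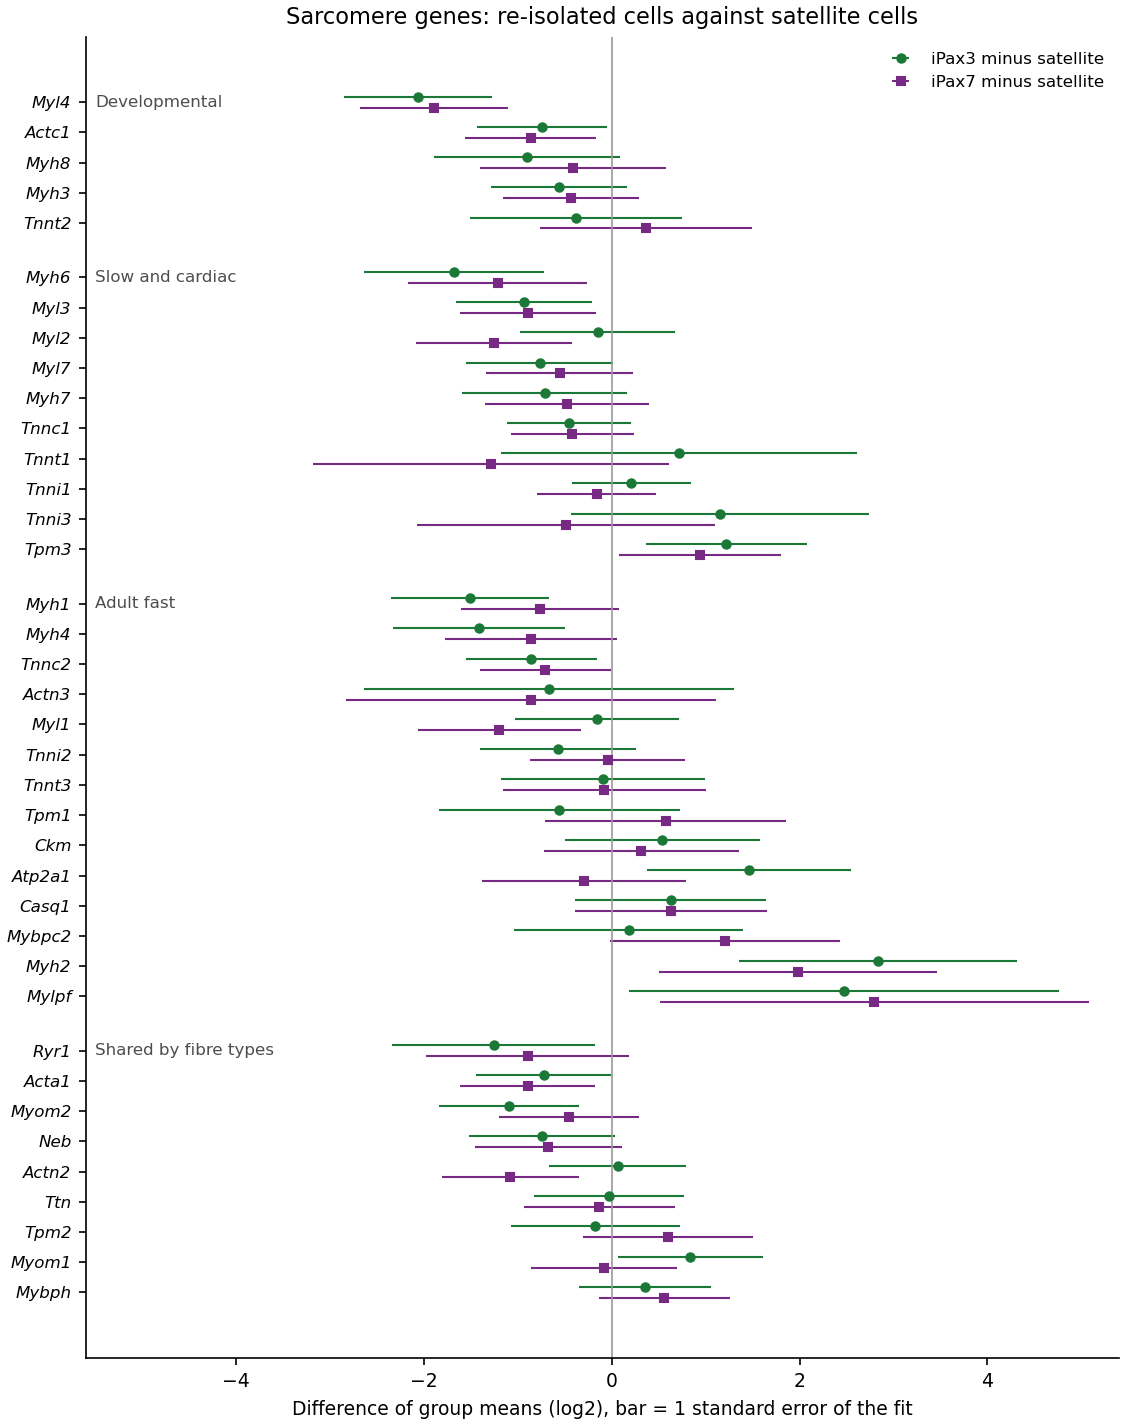
Difference in mean log2 level between each re-isolated group and satellite cells for the 38 tested members, sorted within each class by the difference of both groups together. Bars are 1 standard error of the limma fit. Myl4 lies lowest, at -2.07 and -1.89, and Mylpf and Myh2 lie highest with wide bars.

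Between the re-isolated groups, 15 of 38 members were lower in iPax7 and 23 higher, and the median difference was 0.06, beside 0.07 over all genes. Here 5 of 38 members, or 13.2%, were lower without overlap, above the 4.89% of all genes: Actn2, Atp2a1, Myl2, Myom1 and Tnni1. None was higher without overlap, beside 4.46%. Myl2, the slow regulatory light chain, read -1.34, -1.95 and -2.84 in iPax3 and -3.30, -3.04 and -3.10 in iPax7. Myom1, which ties thick filaments together, read -1.62, -1.53 and -2.45 in iPax3 and -2.95, -2.86 and -2.54 in iPax7. None of the 5 had an unadjusted p under 0.05 in that comparison. The sign of the median was not stable: it was -0.39 without iPax7 replicate 1 and -0.11 after quantile normalization, and it stayed positive in 18 of 22 alternatives. iPax7 replicate 1 shared slide 1 with the 3 iPax3 arrays. Against them alone the median over the members was 0.54, beside 0.08 over all genes, values from 1 iPax7 array with no replicate. iPax7 replicate 1 held the highest of the 9 values for 7 of 38 members, or 18.4%, close to the 16.6% of all genes. These were Casq1, Ckm, Mybph, Mylpf, Tpm1, Tpm2 and Ttn. Satellite replicate 1 also held the highest value for 7 of 38 members, or 18.4%, beside 6.19% of all genes.

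Several genes carried more than 1 probe, and the probes of a gene often gave different answers. With each of the 69 kept member probes tested among 32967 probes, 0 were called in any comparison, beside 0.385% of all probes for iPax3 against satellite cells, 0.434% for iPax7, 0.758% for both together and 0% for iPax7 against iPax3. At an unadjusted p under 0.05 there were 7, 7, 7 and 2 of the 69, beside 12%, 11.7%, 14.3% and 4.28%. Of the 21 members with at least 2 kept probes, 11 had probes whose differences from satellite cells, both groups together, were of opposite sign. The gap between the largest and smallest difference of a gene had a median of 1.63 and exceeded 2 for 9 genes. The probe with the highest mean level stood for its gene above.

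Probes from the protein-coding part of 5 such genes are shown because the answers below differ between probes that overlap, as in Myl4 and Myh3, or that lie apart in 1 transcript, as in Myh6 and Ryr1. The Myh4 probe is shown because it resembles a Myh3 probe. Coordinates are on mm8, the build in the array's header, and spans longer than 60 bases cross at least 1 intron. The Myl4 probes lie at chr11:104400211-104400581 and chr11:104400198-104400568 on the forward strand, and the Myh3 probes at chr11:66917377-66917581 and chr11:66917550-66917609, also forward. Capitals mark the run that the probes of a pair share, 47 bases in Myl4 and 32 in Myh3. The Myh4 probe lies at chr11:67075497-67075556 on the forward strand. The Myh6 probes lie on the reverse strand at chr14:53898964-53900549 and chr14:53900628-53900687. The Ryr1 probes lie on the reverse strand at chr7:28713559-28714265 and chr7:28712530-28713228.
Myl4 probe A_51_P413130: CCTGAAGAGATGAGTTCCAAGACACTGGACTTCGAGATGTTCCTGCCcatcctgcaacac
Myl4 probe A_52_P544523: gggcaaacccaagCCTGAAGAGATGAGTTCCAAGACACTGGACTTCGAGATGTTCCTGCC
Myh3 probe A_52_P247953: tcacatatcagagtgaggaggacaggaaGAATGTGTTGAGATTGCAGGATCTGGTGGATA
Myh3 probe A_51_P167668: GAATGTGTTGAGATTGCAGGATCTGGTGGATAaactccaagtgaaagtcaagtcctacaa
Myh4 probe A_52_P602147: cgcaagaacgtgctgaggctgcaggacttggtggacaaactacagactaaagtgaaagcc
Myh6 probe A_51_P512210: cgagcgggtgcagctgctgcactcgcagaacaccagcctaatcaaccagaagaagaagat
Myh6 probe A_52_P117510: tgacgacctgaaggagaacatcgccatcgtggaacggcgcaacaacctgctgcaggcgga
Ryr1 probe A_51_P416074: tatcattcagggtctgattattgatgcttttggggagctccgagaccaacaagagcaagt
Ryr1 probe A_52_P391110: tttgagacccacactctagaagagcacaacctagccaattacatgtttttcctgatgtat

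The overlapping Myl4 probes share 47 of 60 bases. The probe A_51_P413130, which stood for the gene, differed by -1.98 as given above. The other, A_52_P544523, read -2.06, -1.62 and -0.43 in satellite cells and between -2.17 and -1.06 in the re-isolated cells, a difference of -0.36 ± 0.66 with an adjusted p of 0.841. The satellite and re-isolated arrays overlapped in both probes. The overlapping Myh3 probes also parted: A_52_P247953 differed by -0.50, while A_51_P167668 read between -3.61 and -1.39 in the re-isolated cells and -3.46, -3.74 and -3.64 in satellite cells, a difference of 0.90 ± 0.60.

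Between genes, the shown Myh3 probe A_51_P167668 and the Myh4 probe A_52_P602147 lie in the same stretch of the myosin rod, and 40 of their 55 aligned bases were identical, or 72.7%. This was the 1 pair of 2999 pairs of member probes from different genes to reach 70% identity over at least 40 aligned bases. The longest run they share is 9 bases. Whether either probe also bound the other transcript was not tested.

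Myh4 and Myh6 held the probes with the lowest adjusted p against satellite cells, both groups together. The second Myh4 probe, A_51_P338072, near the end of the transcript at position 5901 of its accession, read -0.14, 2.60 and 1.01 in satellite cells. It read -4.17, -3.06 and -5.34 in iPax3 and -1.74, -0.94 and -0.97 in iPax7. The 3 groups did not overlap, with satellite cells highest and iPax3 lowest, and the probe was not well above background on iPax3 replicate 3. The difference was -3.86 with the re-isolated groups together, adjusted p 0.079, and -5.35 for iPax3 alone, adjusted p 0.060, so it missed the threshold. iPax7 was 2.97 above iPax3 with an adjusted p of 0.947. The Myh4 probe shown above did not part the groups in this way.

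The second Myh6 probe, A_52_P117510, read -1.43, 2.55 and 1.04 in satellite cells and between -4.66 and -2.72 in the re-isolated cells. Its groups did not overlap, and the difference was -4.18 ± 0.94, adjusted p 0.095. It was not well above background on iPax7 replicate 2. Both Myh6 probes were lower in the re-isolated cells, by unequal amounts. The Ryr1 probe A_51_P416074 read 2.49, 1.22 and -3.36 in satellite cells and between -6.54 and -0.80 in the re-isolated cells, a difference of -4.47 ± 1.52, adjusted p 0.241. It was not well above background on iPax3 replicate 1 and iPax7 replicate 1, so the size of this difference rests in part on values without a measured level. Its neighbour A_52_P391110, which stood for the gene, differed by -1.08.

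The Atp2a1 probes disagreed in direction. They lie on the reverse strand at chr7:126239337-126239396 and chr7:126237732-126238075.
Atp2a1 probe A_51_P244856: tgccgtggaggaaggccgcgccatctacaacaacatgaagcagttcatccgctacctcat
Atp2a1 probe A_52_P686130: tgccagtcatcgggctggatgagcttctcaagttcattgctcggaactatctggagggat

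The first, A_51_P244856, differed by 0.58. The second, closer to the end of the transcript, read 1.20, -2.01 and -0.61 in satellite cells and between -3.76 and -2.02 in the re-isolated cells, a difference of -2.35 ± 0.82 with an adjusted p of 0.252. The re-isolated arrays all lay below the satellite arrays in that probe, by a margin under 0.01 at the closest point. In all, 3 of the 69 member probes lay below the satellite arrays without overlap, in Atp2a1, Myh4 and Myh6, beside 3.74% of all probes, and 1 above, in Myh2, beside 4.19%.

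**Figure D4:**
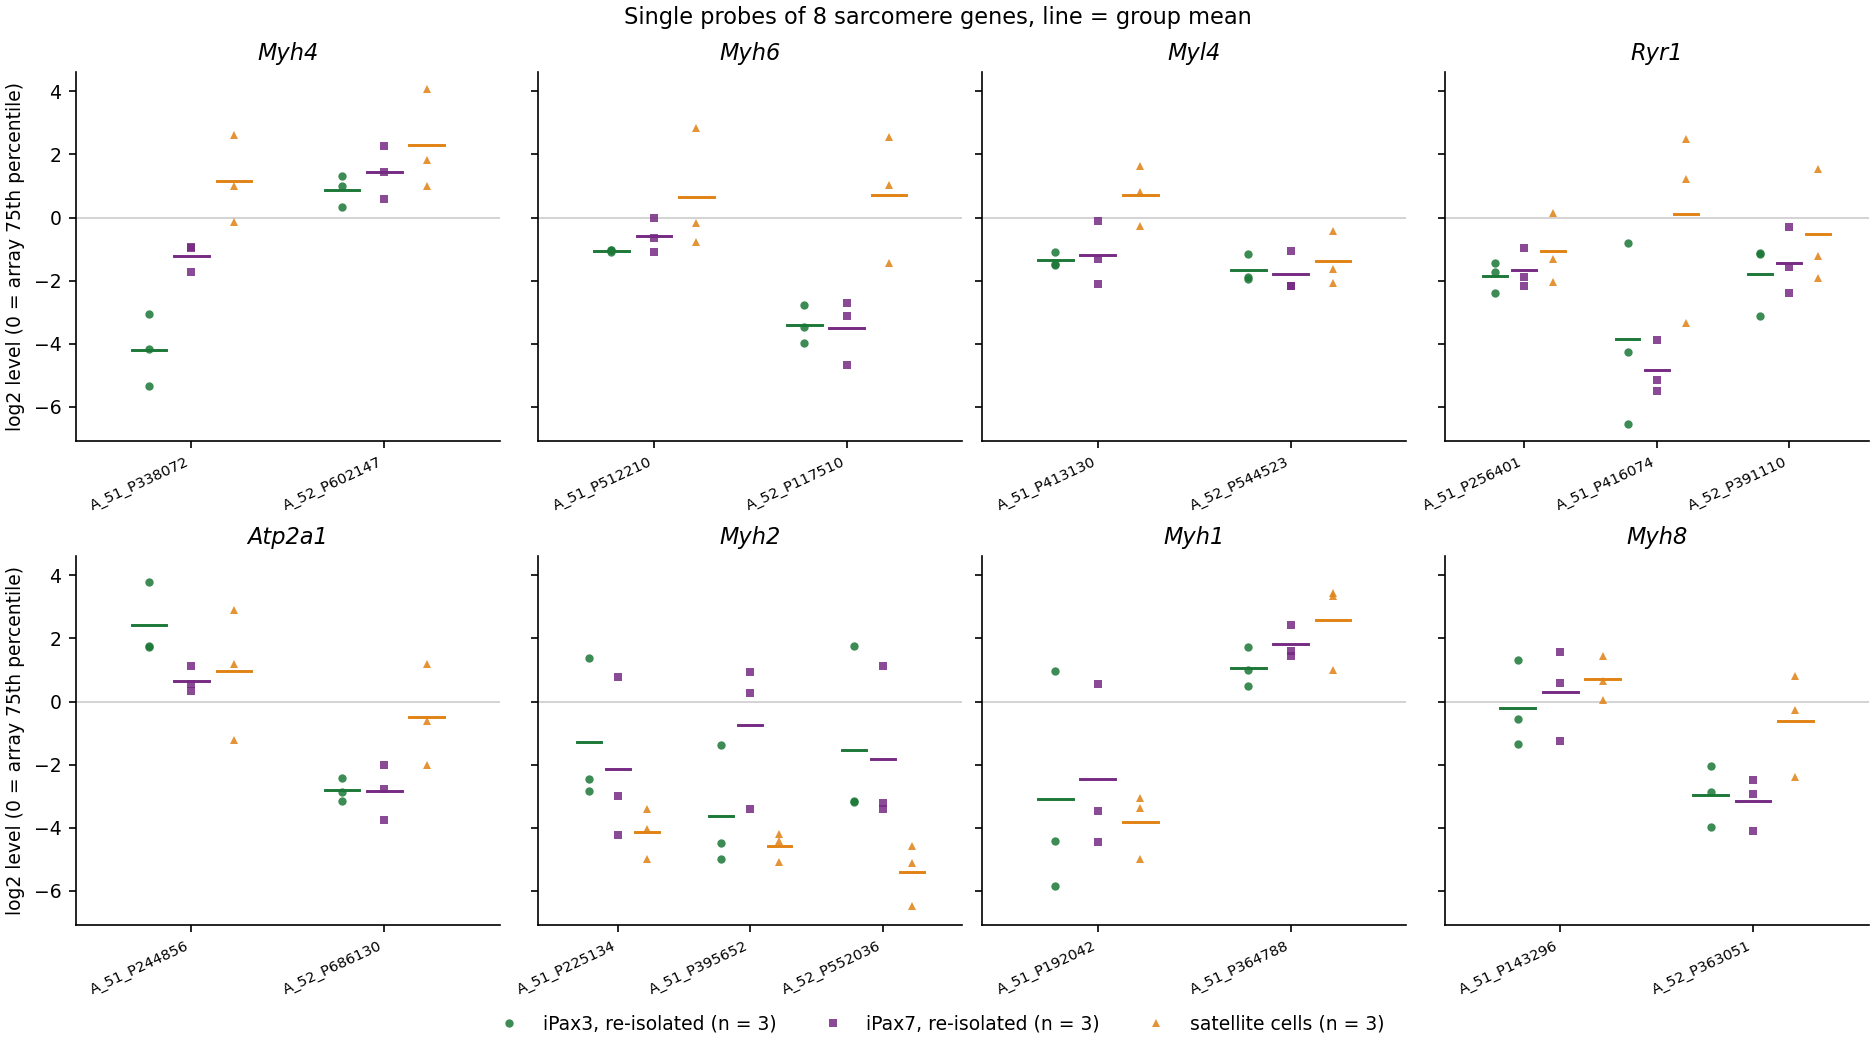
Log2 level of each kept probe of 8 sarcomere genes on the 9 arrays, where 0 is the array's 75th percentile; points are arrays and short lines are group means. In Myh4, Myh6, Myl4, Ryr1, Atp2a1 and Myh8 the satellite mean lies farther from the re-isolated means in 1 probe than in another, and all 3 Myh2 probes are lower in satellite cells in mean.

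The skeletal myosin heavy chains Myh3, Myh2, Myh1, Myh4 and Myh8 lie in a row on chromosome 11, and their probes did not move as a block. All 3 Myh2 probes were higher in the re-isolated cells in mean, by 2.40 to 3.72. The probe A_52_P552036 gave the largest of these, with -6.47, -4.58 and -5.13 in satellite cells and -3.40 to 1.75 in the re-isolated cells, 3.72 ± 1.41 with an adjusted p of 0.284. It was above background on 1 of the 3 satellite arrays. Replicate 3 of iPax3 and replicate 3 of iPax7 held the highest values in 2 of the 3 Myh2 probes, and also in the Myh1 probe A_51_P192042, at 0.97 and 0.55 against -3.05 or less elsewhere. It was well above background on 6 of 9 arrays. That Myh1 probe differed by 1.03 and the other Myh1 probe by -1.14. In Myh8 the probe A_52_P363051 read -2.40, 0.80 and -0.26 in satellite cells and between -4.09 and -2.04 in the re-isolated cells, a difference of -2.44 ± 0.87 with an adjusted p of 0.262, and it was not well above background on iPax7 replicate 1. Myh6 and Myh7 lie next to each other on chromosome 14. Both Myh6 probes were lower in the re-isolated cells, and the Myh7 probes, which share 55 bases, differed by -0.60 and 0.73.

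Other muscle genes were counted from lists of related function. Of 42 further genes of the sarcomere, the calcium store and muscle metabolism, 35 were tested and 0 were called in any comparison, with 5 at an unadjusted p under 0.05 for the re-isolated groups together, beside 15.4% of all genes. With the re-isolated groups together 21 were lower and 14 higher, with a median of -0.37. The 4 with the largest differences were Ampd1, Trdn, Mb and Srl. Ampd1, muscle AMP deaminase, was well above background on 4 of 6 re-isolated arrays and on 0 of 3 satellite arrays. Its re-isolated mean of -2.51, which includes arrays not well above background, lay 6.37-fold above the satellite arrays' detection floor of -5.18. This ratio is not a lower bound, and the difference did not pass the test, with an adjusted p of 0.201. Trdn, which anchors the calcium store, differed by 2.63 (adjusted p 0.367, with no value for satellite replicate 2), Mb, myoglobin, by 2.57 (adjusted p 0.377) and Srl, a calcium-binding protein of the store, by -2.47 (adjusted p 0.242).

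Of the 16 actin, myosin, actinin and tropomyosin genes of non-muscle and smooth muscle cells, 1 was called. The call came with the re-isolated groups together, beside 1.04% of all genes. At an unadjusted p under 0.05 there were 5 of the 16 in that comparison, 3 lower and 2 higher, beside 15.4% of all genes. Myh11, the smooth muscle myosin heavy chain, read 2.49, 2.67 and 3.26 in satellite cells and between -0.84 and 0.66 in the re-isolated cells, and fell by 2.95 in the re-isolated groups together, with an adjusted p of 0.048. It was called in 7 of 21 alternative settings, with adjusted p from 0.025 to 0.253. The other smooth muscle and pericyte markers did not pass, and the mean of those 9 genes was -0.46 to 0.79 on the re-isolated arrays and 0.08 to 1.58 on the satellite arrays. The median difference of the 16 genes was 0.94 in iPax3, 0.07 in iPax7 and 0.79 with both groups together.

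Of 10 regulators of muscle differentiation, 8 were tested and 0 called, with 4 at an unadjusted p under 0.05 for the re-isolated groups together, beside 15.4% of all genes. Pax7, the satellite cell transcription factor, differed by -4.94 (adjusted p 0.072), Mef2c by 3.55 (adjusted p 0.215), Myf6 by -2.69 (adjusted p 0.078) and Myod1 by -1.72 (adjusted p 0.217). Myog, which drives terminal differentiation and many sarcomere genes, read -3.97, -3.32 and 3.50 in satellite cells and between -2.67 and -0.81 in the re-isolated cells. A single satellite array, replicate 3, was therefore high for Myog. The same array held the highest of the 9 values for 10 of 38 sarcomere members, or 26.3%, close to the 24.7% of all genes. A link between Myog and the members was not tested.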

How the data were processed

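RNA from 9 samples was measured on Agilent one-colour arrays. The members and gene lists were chosen with earlier results of these data known. Per the labels' protocols, cDNA was amplified with the SuperAmp kit and labelled with Cy3. Per the file headers, intensity values were read and background-corrected by Agilent Feature Extraction 10.5.1.1. The authors' deposited table holds log2 values; per the submitters' processing notes limma was used, with version and steps not given in the sources used here. It served as an alternative.

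Log2 intensities were scaled to each array's 75th percentile. Probes well above background on at least 3 of 9 arrays were kept, and the probe with the highest mean stood for its gene. Symbols were updated through RefSeq genes, 24375 of 41174 probes by accession. One limma 3.58.1 fit (R 4.3.3) covered all 22705 genes and 9 arrays, with no block; fold changes are log2 differences and p-values were adjusted by Benjamini-Hochberg. The procedure was tested on simulated data. Members are given by isoform class. Of the lists of other muscle genes, non-muscle and smooth muscle filament genes and regulators, the called genes are named, else the 4 with the largest difference. Cell type marker lists are given as counts and mean levels. The number of arrays limits the precision. The labels state 3 independent experiments; whether arrays of a group are separate experiments is not said, so p-values measure the spread between these arrays. Replicate numbers were checked for pairing: deviations of same-numbered arrays correlated between -0.13 and 0.06, so they were not treated as pairs. 1 probe, of Mybpc1 under another name, was left out by the choice by name; it ran from -5.73 to 2.62 over the arrays.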

Additional observations from a re-analysis of the deposited data

How the results depend on the processing

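No sarcomere member was called in any comparison under any alternative, 0 in each case. These included the replicate number as a block, slide or scan day as a random block, and each array left out in turn. Whether equal replicate numbers mark a shared experiment is not known. With each probe tested on its own, chosen after seeing the data, the lowest adjusted p was 0.060 for iPax3 and 0.079 for both groups (Myh4) and 0.185 for iPax7 (Myh6) against satellite cells. Over the other alternatives it was 0.094 (Myh4, iPax3, mean of the probes of a gene), 0.172 (Myl4, iPax7) and 0.100 (Myl4, both groups), both Myl4 values without satellite replicate 1. For iPax7 against iPax3 it was 0.123 (Tpm1) with slide as a fixed block, where iPax7 replicate 1 is the only iPax7 array on a slide with iPax3 arrays and its spread is assumed to be like the others. Calls over all genes moved more: for both groups together 236 became 133 with median scaling, 46 with slide and 43 with scan day as a random block, 115 with the replicate block, 703 without satellite replicate 1 and 62 without satellite replicate 2. Median scaling moved the median of all genes from -0.16 to -0.47 and that of the members from -0.47 to -0.78. The median of the developmental class was negative in 21 of 21 alternatives, from -0.97 to -0.34, and that of the adult fast class in 12 of 21, from -0.46 to 0.41. Of 792 member values for both groups together under the alternatives, 57 changed sign. With 3 arrays a group, signal over background and array spread limit the members to the intervals given above.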
